A study of Mus musculus with 6 samples.

Results

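The proteins that enter the endoplasmic reticulum of a liver cell are folded, bonded and checked there, and 39 genes of this machinery and of the response to unfolded protein were followed in livers with and without Dnajb4. They were taken by name from a list of chaperones and co-chaperones (8 genes), enzymes and partners of disulfide bond formation (6), translocon subunits (2), stress sensors and their proteases (7), transcription factors (3), targets of the PERK arm (4) and parts of ER-associated degradation (9). They were listed by known function, with no threshold on measured values but with earlier results of these arrays known, and DnaJ genes were left out. All 39 were measured, among 18193 genes that had at least 1 probe set with a single gene symbol. On the array each transcript is read by sets of short oligonucleotides, the probe sets. The 39 genes had 88 probe sets, with 1 probe set for 12 genes and up to 6 for the others.

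Hepatocytes secrete most plasma proteins, and the endoplasmic reticulum (ER) of these cells carries a heavy folding load. Chaperones such as BiP (Hspa5) hold nascent chains, disulfide isomerases join their cysteines, and chains that fail to fold are drawn back to the cytosol and degraded. When unfolded protein accumulates, the sensors IRE1, PERK and ATF6 act: IRE1 splices Xbp1 mRNA, PERK phosphorylates eIF2 and so favours translation of ATF4, and ATF6 is cut by Golgi proteases into a transcription factor. XBP1 and ATF6 are known to drive chaperone and degradation genes, and ATF4 to drive Ddit3, Trib3, Chac1 and Ppp1r15a.

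The question of the array experiment was how liver mRNA differs between mice that have and mice that lack HLJ1, the cytosolic DnaJ co-chaperone encoded by Dnajb4. Total RNA came from untreated livers of 3 Dnajb4+/+ and 3 Dnajb4-/- mice, all labelled as male C57BL/6 of 6 to 8 weeks and as separate animals, with 1 Affymetrix mouse expression array each. The knockout was made by gene targeting in embryonic stem cells, and which part of Dnajb4 was removed is not given in the sources used here. Values are the authors' normalized intensities. For each gene the log2 values of its probe sets were averaged, and the mean of these log2 values is given back as an intensity. Differences are Dnajb4-/- minus Dnajb4+/+ on the log2 scale. A gene was called higher or lower when limma's adjusted p over all genes was under 0.05. In whole liver, fewer cells of a type and less RNA per cell cannot be told apart.

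Dnajb4 itself was read by 3 probe sets. The brightest gave 588, 566 and 612 in the Dnajb4+/+ arrays and 467, 480 and 453 in the Dnajb4-/- arrays, so every knockout array lay below every wild-type array (log2 difference -0.34, adjusted p = 0.00768 over single probe sets by limma). The other Dnajb4 probe sets overlapped between the genotypes, at 112 ± 4.96 and 108 ± 1.43 for one and 38.9 ± 5.71 and 38.1 ± 6.65 for the dimmest (SD, n = 3). Averaged over its probe sets, Dnajb4 did not pass the test (-0.14, adjusted p = 0.145). The position of these probe sets in the gene was not analysed here, so the signal that remained in the knockout arrays checks the labels only in part.

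The genotypes also differed in ways that the labels do not name. Xist, transcribed from the inactive X chromosome of female cells, lay at 364 to 402 in wild-type and at 14.3 to 17.1 in knockout arrays, although all mice are labelled male. In the same wild-type arrays Uty, Eif2s3y and Kdm5d, which lie on the Y chromosome, were at 77.9% to 102% of their knockout means. Of 19 liver genes known to be higher in females, 18 were lower in Dnajb4-/-, and of 15 higher in males, 11 were higher and 1 lower. Of 19 circadian clock genes, 5 were higher and 12 lower. Kupffer cell and macrophage markers were lower for 13 of 14, with a summed signal of 7536 to 7966 in Dnajb4+/+ and 5694 to 5978 in Dnajb4-/- arrays. Skeletal muscle markers were lower for 14 of 18 (sums of 1042 to 1115 and 576 to 595) and endothelial markers for 6 of 12 (sums of 2850 to 3023 and 2602 to 2720). Hepatocyte markers, which check the tissue label, were bright in every array, with 2 of 17 higher, 1 lower and sums of 273106 to 274687 and 271883 to 272789. The 3' over 5' signal ratio, which rises as RNA degrades, was 1.17 ± 0.0134 and 1.45 ± 0.0265 for Gapdh and 2.65 ± 0.0485 and 3.17 ± 0.0602 for Actb (SD, n = 3). All 3 wild-type arrays carry the Xist signal, so no comparison without it could be made, and genotype, Xist signal, clock gene levels and RNA ratio cannot be told apart in any result below. Across genes, which are not independent replicates, Pearson's r was 0.9981 to 0.9985 within and 0.9935 to 0.9948 between genotypes.

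Of the 39 genes, 10 were higher and 3 lower in Dnajb4-/- livers, and 26 missed the threshold. The higher share was 25.6%, beside 5.09% of all genes tested, and the lower share was 7.69%, beside 9.57% of all genes. In either direction 14.7% of all genes were called. The differences were small, between -0.45 (Ddit3) and 0.54 (Chac1), with a median of 0.06 beside 0.01 over all genes. The arrays of the genotypes did not overlap for 27 of the 39 genes, 21 of them with the knockout arrays above, whereas 35.5% of all genes did not overlap. Of all calls over the genome 34.7% were higher in Dnajb4-/-. This share was 51.7% or 53.7% when the arrays were centred on their brighter probe sets. With these centrings 16 or 17 of the 39 genes were higher and 3 lower. Over all genes 8.37% or 8.84% were then higher and 7.81% or 7.62% lower. With 1 array left out, 7 to 9 genes were higher (7 if that was replicate 1 or 2 of Dnajb4+/+, or replicate 2 or 3 of Dnajb4-/-) and 3 were lower. Over all genes 2.84% to 3.61% were then higher and 5.69% to 7.43% lower.

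**Figure D1:**
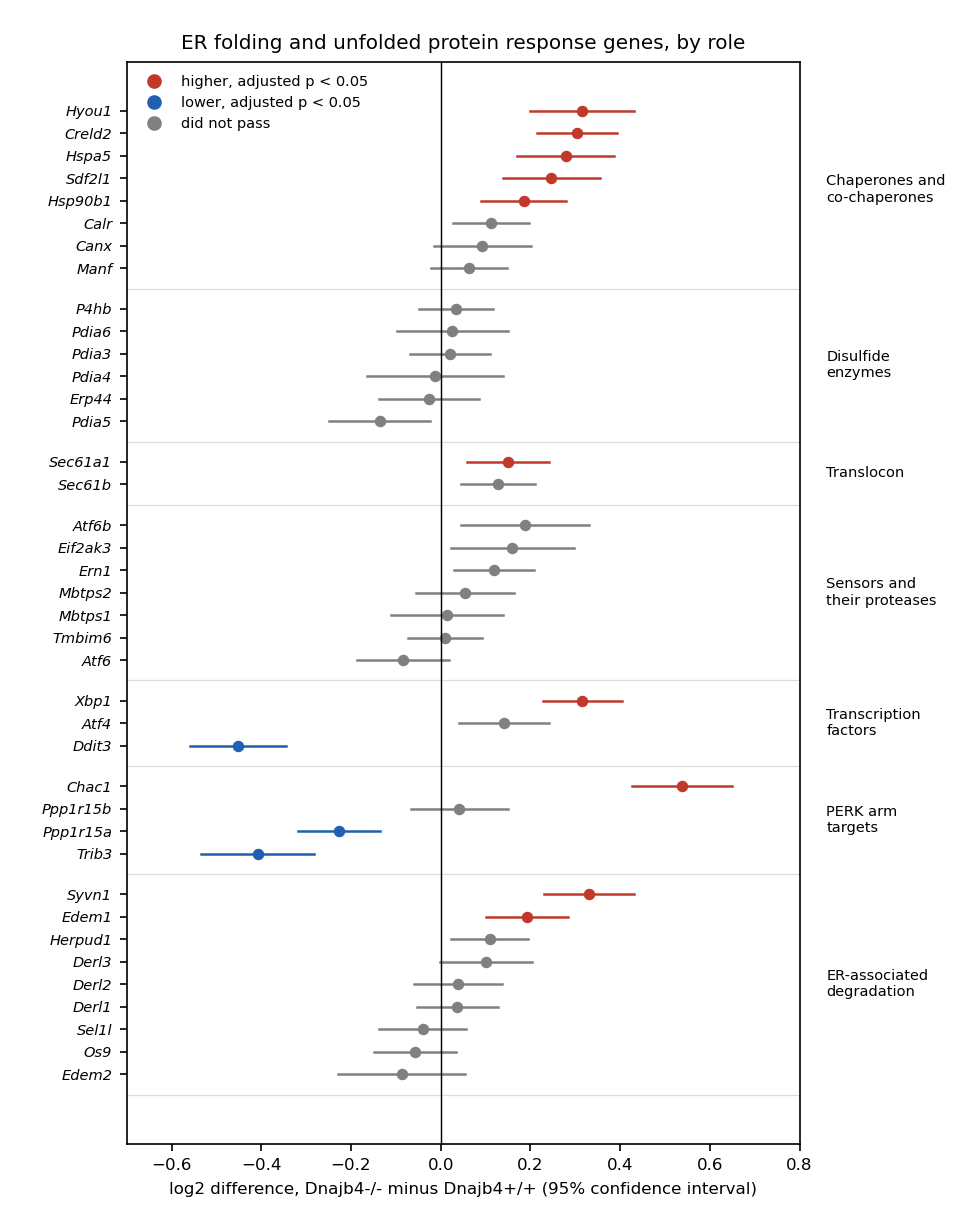
Log2 difference of each of the 39 genes (Dnajb4-/- minus Dnajb4+/+, horizontal axis) with its 95% confidence interval from limma, grouped by role. The 10 red genes were called higher and the 3 blue genes lower, and all 8 chaperones lie to the right of 0.

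The chaperones and co-chaperones held 5 of the 10 higher genes. All 8 had a positive difference and no overlap between the genotypes, and the 5 that passed the test had differences of 0.19 to 0.32. Creld2, a secreted ER protein of the disulfide network, read 463, 472 and 475 in Dnajb4+/+ and 566, 591 and 583 in Dnajb4-/- arrays. Its lowest knockout array was well above its highest wild-type array, a rise of 23.4% (log2 difference 0.30, SE 0.04, adjusted p = 0.00270). Hspa5, which encodes BiP, the Hsp70 of the ER lumen and the partner of the ER DnaJ proteins, read 2058, 2173 and 1976 in Dnajb4+/+ and 2480, 2525 and 2520 in Dnajb4-/- arrays. The knockout arrays lay close together above the more scattered wild-type arrays, a rise of 21.3% (0.28, SE 0.05, adjusted p = 0.00878).

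Hyou1, a large Hsp70-related chaperone that exchanges the nucleotide of BiP, read 209, 217 and 195 in Dnajb4+/+ and 259, 255 and 258 in Dnajb4-/- arrays. The genotypes were apart (0.32, SE 0.05, adjusted p = 0.00681), but its probe sets did not give the same difference. The brightest rose from 1093 ± 12.2 to 1299 ± 37.8 (0.25), a dim probe set rose from 29.7 ± 3.50 to 48.8 ± 4.01 (0.72), and the remaining one, at 274 ± 11.3 and 269 ± 12.5, overlapped (SD, n = 3). The overlapping probe set is the only one of Hyou1 whose name does not mark it as able to read several transcripts, and with it alone the difference was -0.02 (adjusted p = 0.818). With only probe sets of suffix x or s left out, which keeps the dim one of suffix a, Hyou1 passed (0.35, adjusted p = 0.0114).

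Sdf2l1, which joins the BiP complex with the ER DnaJ protein Dnajb11, read 694, 682 and 718 in Dnajb4+/+ and 800, 865 and 820 in Dnajb4-/- arrays. No knockout array reached down to a wild-type array (0.25, SE 0.05, adjusted p = 0.0135), although without Dnajb4+/+ replicate 1 the adjusted p was 0.0528. Hsp90b1, the ER form of Hsp90 also called GRP94, read 4465, 4264 and 4254 in Dnajb4+/+ and 5034, 4881 and 4845 in Dnajb4-/- arrays. Its rise was 13.7% (0.19, SE 0.04, adjusted p = 0.0249), and leaving out any array other than Dnajb4+/+ replicate 1 left it short of the threshold, with adjusted p of 0.0591 to 0.0807 and differences of 0.17 to 0.20.

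The lectin chaperones calreticulin and calnexin, which hold newly glycosylated chains, did not pass as genes. Calr read 4681 ± 22.6 in wild-type and 5061 ± 92.6 in knockout livers (SD, n = 3; 0.11, adjusted p = 0.0856), and Canx 933 ± 30.8 and 995 ± 35.5 (0.09, adjusted p = 0.231). The brightest of the 3 Canx probe sets was higher on its own (3896 ± 63.1 and 4452 ± 27.2, 0.19, adjusted p = 0.0265), and the others overlapped. Manf, a secreted ER protein that binds BiP, read 1437 ± 20.0 and 1502 ± 15.8 (0.06, adjusted p = 0.290).

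**Figure D2:**
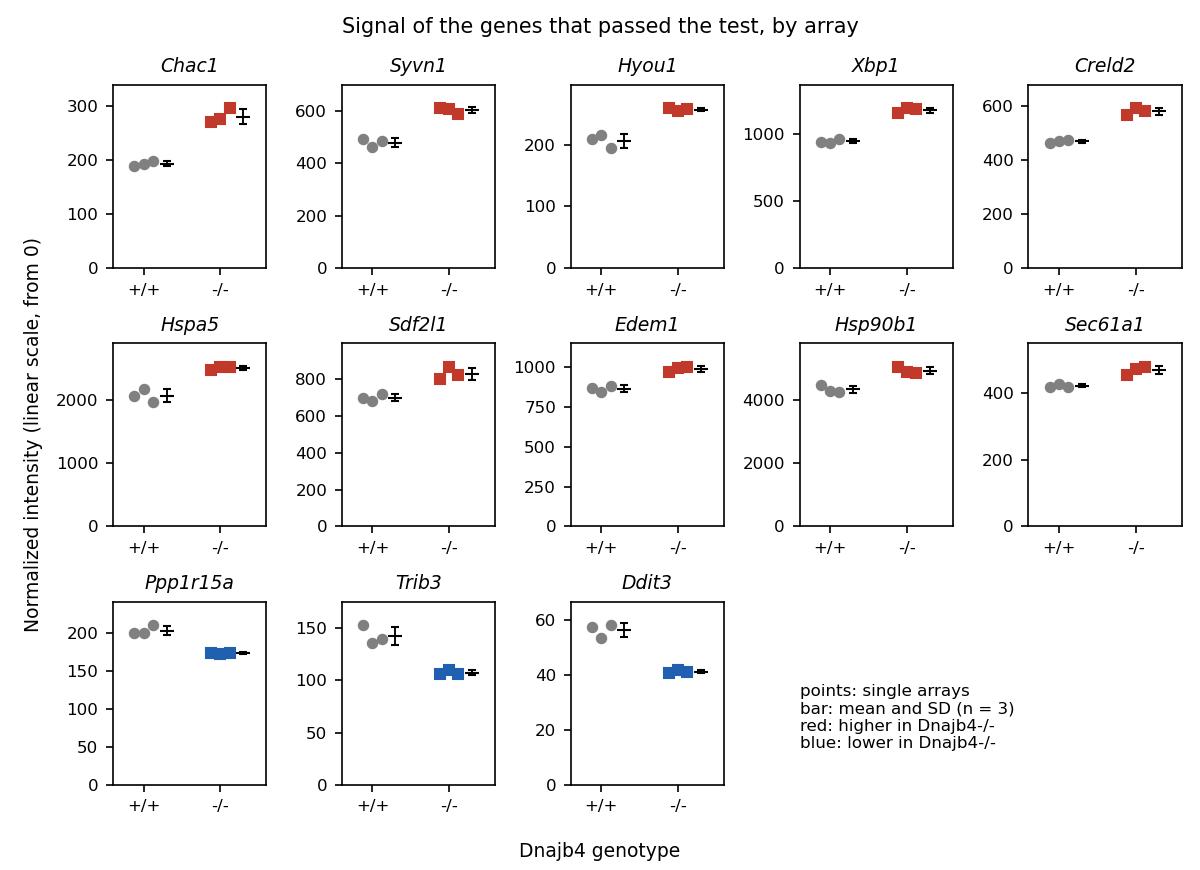
Normalized intensity (vertical axis, linear scale from 0) of the 13 genes that passed the test, in each Dnajb4+/+ (grey) and Dnajb4-/- (red for higher, blue for lower) array, with mean and SD (n = 3). In each panel the arrays of the genotypes do not overlap, as for Chac1 at 188 to 198 and 271 to 296.

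The start regions of the genes were searched for the ER stress response element (ERSE), the motif through which ATF6 with NF-Y, and XBP1, are known to act on chaperone genes. It was spelled as CCAAT and CCACG with 9 bases between them, on both strands, in RefSeq sequence of GRCm38.p6 from 250 bases before to 50 bases after each annotated start. Of the 39 genes 32 had such a sequence, and 8 of the 32 (25%) held the motif, beside 37 of 27025 genes (0.137%). These are shown because the motif runs through called and uncalled genes alike. Each line reads 5' to 3' along the gene's strand, with the motif parts in capitals and 12 bases on either side, and a motif on the opposite strand reads CGTGG and ATTGG.
Hspa5, chr2:34772013-34772055, + strand: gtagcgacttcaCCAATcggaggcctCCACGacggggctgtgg
Syvn1, chr19:6046520-6046562, + strand: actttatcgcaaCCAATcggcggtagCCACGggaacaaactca
Creld2, chr15:88819508-88819550, + strand: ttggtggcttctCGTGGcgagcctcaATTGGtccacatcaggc
Hsp90b1, chr10:86705626-86705668, - strand: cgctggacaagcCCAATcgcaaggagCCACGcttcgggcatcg
Hsp90b1, chr10:86705521-86705563, - strand: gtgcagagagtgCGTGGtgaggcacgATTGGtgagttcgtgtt
Calr, chr8:84847063-84847105, - strand: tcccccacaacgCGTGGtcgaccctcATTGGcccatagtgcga
Canx, chr11:50325788-50325830, - strand: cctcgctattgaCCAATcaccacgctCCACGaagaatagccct
Derl3, chr10:75893230-75893272, + strand: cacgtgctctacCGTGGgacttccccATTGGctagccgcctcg
Pdia6, chr12:17266479-17266521, + strand: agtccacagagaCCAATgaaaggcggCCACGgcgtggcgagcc

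Of these 8 genes, Hspa5, Syvn1, Creld2 and Hsp90b1 were called higher and none lower. All 8 had a positive difference, between 0.03 (Pdia6) and 0.33 (Syvn1), with a median of 0.15, and the genotypes did not overlap for 7 of them. Of the 24 genes with a sequence but without the motif 4 were higher and 3 lower, with a median of 0.04. Among all 14348 measured genes with a sequence and without the motif, 5.05% were higher and 9.70% lower. The genotypes did not overlap for 5150 of these 14348, and their median was 0.01. Outside the list, 12 further measured genes held an ERSE. Of these Dnajc3 (0.19) and Ero1b (0.26), which act in the ER, were higher and Acnat2 (-1.11), an acyltransferase, was lower, with a median of 0.07 over the 12. A match is a description of the letters in this window, not of a bound site, and the list was built from genes known to answer ER stress. CCACG alone, which every ERSE contains, was in 24 of the 32 genes (75%) and in 35.5% of all genes with a sequence.

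Other elements of the response were rarer in these windows. The second form of the element (ATTGG and CCACG with 1 base between, both strands) was found in Herpud1 alone, beside 0.0444% of all genes. Outside the list, 8 further measured genes held it. Lgalsl (0.93) was higher, and Nucb1 (-0.19), Rbm39 (-0.28) and Rcl1 (-0.19) were lower, with a median of 0.08 over the 8. Without this form, 5.08% of measured genes with a sequence were higher and 9.68% lower. The core of the unfolded protein response element (TGACGTGG, both strands) was found in none of the 32, beside 0.714%. The motif of ATF4 with C/EBP (TGATGNAA, both strands) was in Chac1, Herpud1 and Trib3, beside 4.51% of all genes. Of these Chac1 was higher (0.54), Trib3 lower (-0.41) and Herpud1 not called (0.11). Of 462 other measured genes with this motif 5.63% were higher and 8.66% lower. Without it, 5.06% of measured genes with a sequence were higher and 9.72% lower. The windows of Chac1, the gene with the largest difference of the 39, and of Herpud1 are given in the same way, with the motif on the opposite strand in Chac1 and its N in lower case.
Chac1, chr2:119351037-119351068, + strand: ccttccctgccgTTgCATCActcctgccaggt
Herpud1, second form, chr8:94386365-94386399, + strand: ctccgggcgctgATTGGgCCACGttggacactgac

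None of the 6 disulfide enzymes and partners was called. P4hb, Pdia3, Pdia4 and Pdia6, which form and rearrange disulfide bonds, and Erp44, which retains the oxidases in the ER, had differences of -0.03 to 0.03, with 95% confidence intervals that lay between -0.16 and 0.15. P4hb read 7658 ± 97.1 and 7840 ± 40.2, and Pdia6 298 ± 16.8 and 303 ± 7.77 (SD, n = 3). Pdia5 was the only one of the 6 with a difference past 0.1 in size, at 1239 ± 40.2 and 1127 ± 46.3 (-0.14, adjusted p = 0.107), with its knockout arrays below its wild-type arrays.

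Both subunits of the translocon, the channel through which chains enter the ER, had their knockout arrays above their wild-type arrays. Sec61a1, the channel itself, read 418, 426 and 419 in Dnajb4+/+ and 454, 470 and 477 in Dnajb4-/- arrays. This rise of 10.9% (0.15, SE 0.04, adjusted p = 0.0435) had the highest adjusted p of the 13 calls, and it missed the threshold without any 1 of the 6 arrays (adjusted p of 0.0579 to 0.127). Of the 6 Sec61a1 probe sets 3 were higher on their own, all of suffix a, counted here with the kind that can read several transcripts. In the other kind, 1 rose from 288 ± 16.4 to 329 ± 16.2 (0.19) and 1 from 1016 ± 33.8 to 1092 ± 17.1 (0.10). Neither passed, and the genotypes did not overlap in either. The dimmest, at 38.4 ± 6.29 and 34.1 ± 2.44, was at -0.16 with overlap (SD, n = 3). With the other kind alone Sec61a1 did not pass (0.04, adjusted p = 0.653). Sec61b read 4192 ± 43.1 and 4581 ± 34.5 (0.13, adjusted p = 0.0532).

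None of the 7 sensors and their partners passed the test, although Atf6b was called in 9 of 20 alternative settings and Ern1 in 8 of 20. Ern1, the gene of IRE1, read 53.5 ± 1.05 in Dnajb4+/+ and 58.1 ± 0.975 in Dnajb4-/- livers (0.12, adjusted p = 0.0824), with its knockout arrays above its wild-type arrays. Of its 5 probe sets 1 was higher on its own (50.2 ± 0.995 and 62.2 ± 3.09, 0.31, adjusted p = 0.0121), and the others lay between -0.06 and 0.14. Eif2ak3, the gene of PERK, read 31.8 ± 2.07 and 35.5 ± 1.40 (0.16, adjusted p = 0.119). Its arrays did not overlap, but this came from a pair of dim probe sets (10.7 and 12.4 in Dnajb4+/+, 12.2 and 14.7 in Dnajb4-/- livers). Its bright probe set read 244 ± 20.0 and 250 ± 10.3 and overlapped (0.03; SD, n = 3). Atf6 read 189 ± 1.03 and 178 ± 7.64 (-0.08, adjusted p = 0.256), while its relative Atf6b read 82.5 ± 3.32 and 94.1 ± 6.26 (0.19, adjusted p = 0.0841; SD, n = 3 for each). Mbtps1 and Mbtps2, the proteases that cut ATF6, had differences of 0.01 and 0.05, and Tmbim6, a membrane protein that restrains IRE1, one of 0.01.

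The transcription factors went different ways. Xbp1, the factor whose mRNA IRE1 splices, read 940, 928 and 958 in Dnajb4+/+ and 1149, 1187 and 1180 in Dnajb4-/- arrays. Every knockout array was above every wild-type array, a rise of 24.4% (0.32, SE 0.04, adjusted p = 0.00208). Its probe sets were not alike. The brightest rose from 3595 ± 101 to 5066 ± 40.7 (0.50), a pair rose by 0.42 and 0.26, and the dimmest, at 117 ± 9.89 and 123 ± 4.34, overlapped (SD, n = 3). That dimmest probe set alone remains when those that can read several transcripts (suffix a, s or x) are left out. Xbp1 then did not pass (0.08, adjusted p = 0.492). The probe set of 0.26, of suffix a, was higher on its own (2437 ± 46.6 and 2925 ± 96.9, adjusted p = 0.0141; SD, n = 3). With only suffix x or s left out, a setting added after seeing the data, Xbp1 passed. Total Xbp1 signal says nothing of how much of the mRNA was spliced, which these values do not separate.

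Ddit3, which encodes CHOP, a factor linked to cell death under lasting ER stress, read 57.8, 53.6 and 58.2 in Dnajb4+/+ and 40.9, 42.0 and 41.1 in Dnajb4-/- arrays. The knockout arrays lay close together below all wild-type arrays, and the gene fell by 0.45 on the log2 scale (SE 0.05, adjusted p = 0.00114). Both of its probe sets were lower on their own, at 137 ± 7.68 and 103 ± 1.99 and at 23.4 ± 1.67 and 16.5 ± 0.185 (SD, n = 3).

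Atf4, the factor that PERK signalling induces at the level of translation, was not called as a gene (0.14, adjusted p = 0.0729), and its probe sets moved in opposite directions. The brightest read 1061, 1095 and 1099 in Dnajb4+/+ and 924, 928 and 985 in Dnajb4-/- arrays, and was lower (-0.20, adjusted p = 0.0379 over single probe sets). The next read 333, 333 and 302 in Dnajb4+/+ and 390, 466 and 396 in Dnajb4-/- arrays, and was higher (0.37, adjusted p = 0.0309). The dimmest, near 10.2 in Dnajb4+/+ and 12.2 in Dnajb4-/- livers, overlapped. The direction of Atf4 therefore depended on the probe set, and the one that was higher is of the kind that can read other transcripts.

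**Figure D3:**
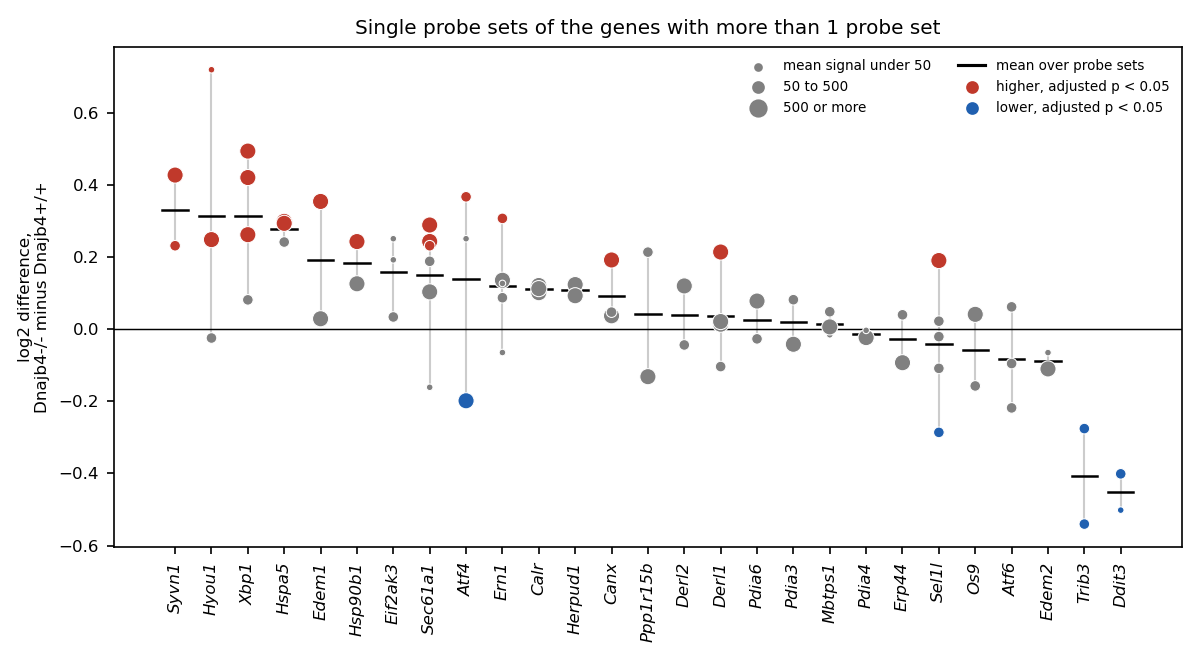
Log2 difference (Dnajb4-/- minus Dnajb4+/+, vertical axis) of every probe set of the 27 genes with more than 1, with point size for mean signal, colour for the call over single probe sets and a black bar for the mean of the gene. Trib3 and Ddit3 have all their probe sets below 0, and Atf4 and Sel1l have called probe sets on both sides.

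The 4 targets of the PERK arm also split. Chac1, an enzyme that degrades glutathione and a known ATF4 target, read 188, 194 and 198 in Dnajb4+/+ and 271, 276 and 296 in Dnajb4-/- arrays. This rise of 45.2% was the largest difference among the 39 genes, with a wide gap between the genotypes (0.54, SE 0.05, adjusted p = 0.000647). Trib3, a pseudokinase induced by ATF4 and CHOP, read 152, 136 and 140 in Dnajb4+/+ and 106, 110 and 106 in Dnajb4-/- arrays. It fell by 0.41 on the log2 scale (SE 0.05, adjusted p = 0.00335), with both probe sets lower (-0.54 and -0.28).

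Ppp1r15a, or GADD34, the stress-induced subunit of the phosphatase that restores eIF2, read 200, 201 and 210 in Dnajb4+/+ and 175, 173 and 175 in Dnajb4-/- arrays. The 3 knockout arrays differed by little and lay below the wild-type arrays (-0.23, SE 0.04, adjusted p = 0.0103). Its constitutive counterpart Ppp1r15b read 238 ± 1.56 and 245 ± 11.8 (0.04, adjusted p = 0.598), from probe sets of -0.13 and 0.21 that did not pass.

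In ER-associated degradation 2 of 9 genes were higher. Syvn1, the HRD1 ubiquitin ligase at the core of the pathway, read 492, 461 and 484 in Dnajb4+/+ and 609, 608 and 589 in Dnajb4-/- arrays. The genotypes were well apart, a rise of 25.7% (0.33, SE 0.04, adjusted p = 0.00300), and both probe sets were higher (0.23 and 0.43). Edem1, which marks mannose-trimmed glycoproteins for degradation, read 865, 842 and 883 in Dnajb4+/+ and 967, 992 and 999.7 in Dnajb4-/- arrays (0.19, SE 0.04, adjusted p = 0.0190).

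The Edem1 difference rested on 1 of its probe sets, which rose from 655 ± 16.2 to 837 ± 10.8 (0.36), while the brighter one overlapped at 1138 ± 26.4 and 1161 ± 29.8 (0.03; SD, n = 3). When replicate 1 or 2 of Dnajb4+/+, or replicate 2 or 3 of Dnajb4-/-, was left out, Edem1 did not pass (adjusted p of 0.0565 to 0.0658). Sel1l, the partner of Syvn1, was not called (-0.04, adjusted p = 0.573), and its 5 probe sets spread from -0.29 (115 ± 4.23 to 94.3 ± 8.28, lower) to 0.19 (1200 ± 16.2 to 1370 ± 17.3, higher; SD, n = 3). Herpud1, a scaffold of the ligase complex, read 4250 ± 34.4 and 4584 ± 84.3 (0.11, adjusted p = 0.0950). Derl1, Derl2 and Derl3, membrane proteins of the exit channel, as well as Edem2 and the lectin Os9, had differences of -0.09 to 0.10 and did not pass. Of the 4 Derl1 probe sets 1 was higher on its own (0.21, adjusted p = 0.0285).

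Over single probe sets, 22 of the 88 were higher and 7 lower, with 59 not called. Among all 34945 probe sets 1817 were higher and 2916 lower, and 13.5% were called in either direction. Of the 13 called genes, Chac1, Creld2, Ddit3, Hspa5, Ppp1r15a, Syvn1 and Trib3 were called in every alternative setting in which they were tested. Hspa5, Trib3 and Hsp90b1 have only probe sets of the kind that can read several transcripts. They were therefore not tested in the setting that leaves this kind out, in which Hyou1, Sec61a1 and Xbp1 did not pass. With only suffix x or s left out, Hyou1 and Xbp1 passed and Sec61a1 did not.

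Genes of the wider pathway were counted from lists of known function. The counts stand beside 5.09% higher and 9.57% lower over all genes tested. Whether any list differed from these shares was not tested. Of the 7 ER DnaJ proteins, the partners of BiP, 2 were higher and none lower. These were Dnajc3, which also inhibits eIF2 kinases, at 924 ± 26.5 and 1052 ± 26.7 (0.19, adjusted p = 0.0273), and Sec63, which recruits BiP to the translocon, at 469 ± 16.1 and 525 ± 2.84 (0.16, adjusted p = 0.0376; SD, n = 3). Dnajb11 read 802 ± 20.3 and 904 ± 38.6 and just missed the threshold (0.17, adjusted p = 0.0507). The median of the list was 0.03.

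Of 18 genes of oxidation, prolyl isomerization and glycan trimming, 3 were higher and 3 lower (median 0.04). Nucb2 was counted on this list, although it encodes the calcium-binding nesfatin precursor and not an enzyme of these steps. It read 88.1, 87.7 and 81.0 in Dnajb4+/+ and 139, 135 and 135 in Dnajb4-/- arrays, with no overlap (0.68, adjusted p = 0.000213). The prolyl isomerase Fkbp14 was lower (-0.38) and the isomerase Pdia2 (0.37, from 11.6 ± 0.810 to 15.0 ± 1.73, SD, n = 3) and the oxidase Ero1b (0.26) were higher. Of 11 subunits of the oligosaccharyltransferase, which attaches N-glycans, Rpn1 (0.27), Stt3a (0.27) and Magt1 (0.22) were higher and none lower (median 0.02). Of 20 genes of ER entry and signal peptide cleavage, the signal peptidase subunit Spcs2 (0.26) and the translocon-associated Ssr1 (0.24) were higher, and the subunit Spcs1 (-0.22) was lower (median 0.03).

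Of 22 other genes of ER-associated degradation none was higher and 3 were lower (median -0.01). These were the ubiquitin ligase Rnf5 (-0.36, adjusted p = 0.00172), the mannosidase Man1b1 (-0.34) and the ligase Tmem129 (-0.23). Of 22 genes of transport from ER to Golgi, the coat subunit Sec31a was lower (-0.30) and the cargo lectin Lman1 higher (0.20), with a median of 0.03.

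Of 28 further targets of ATF4, 2 were higher and 3 lower (median -0.002). Asns, the asparagine synthetase, read 164, 147 and 159 in Dnajb4+/+ and 249, 238 and 237 in Dnajb4-/- arrays, with no overlap (0.63, adjusted p = 0.000518). The mitochondrial folate enzyme Mthfd2 was also higher (0.41), whereas the lipoprotein receptor Vldlr (-0.33) and the factor Atf5 (-0.21) were among the lower. Of 13 kinases, factors and phosphatase subunits acting on eIF2, Dnajc3 was higher and the catalytic subunit Ppp1cc lower (-0.33), with a median of -0.02.

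Of 8 other transcription factors anchored in the ER membrane, Srebf1, which drives fatty acid synthesis, was lower, at 1249, 1203 and 1282 in Dnajb4+/+ and 910, 938 and 944 in Dnajb4-/- arrays (-0.42, adjusted p = 0.00105), and none was higher (median -0.06). Of 10 genes of IRE1 signalling and of mRNAs it is known to cut, Sparc alone was called (-0.22, lower; median 0.01). Of 9 genes of cell death under ER stress, Casp4, an inflammatory caspase, read 55.0 ± 2.72 and 32.7 ± 0.844 and was lower (-0.75, adjusted p = 0.000172; SD, n = 3), as was the oxidase Ero1a (-0.21), and none was higher (median -0.03). Casp4 and Sparc are also expressed by non-parenchymal cells, and the lower Kupffer and endothelial marker signal given above was measured in the same arrays. Its part in these values was not tested.

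**Figure D4:**
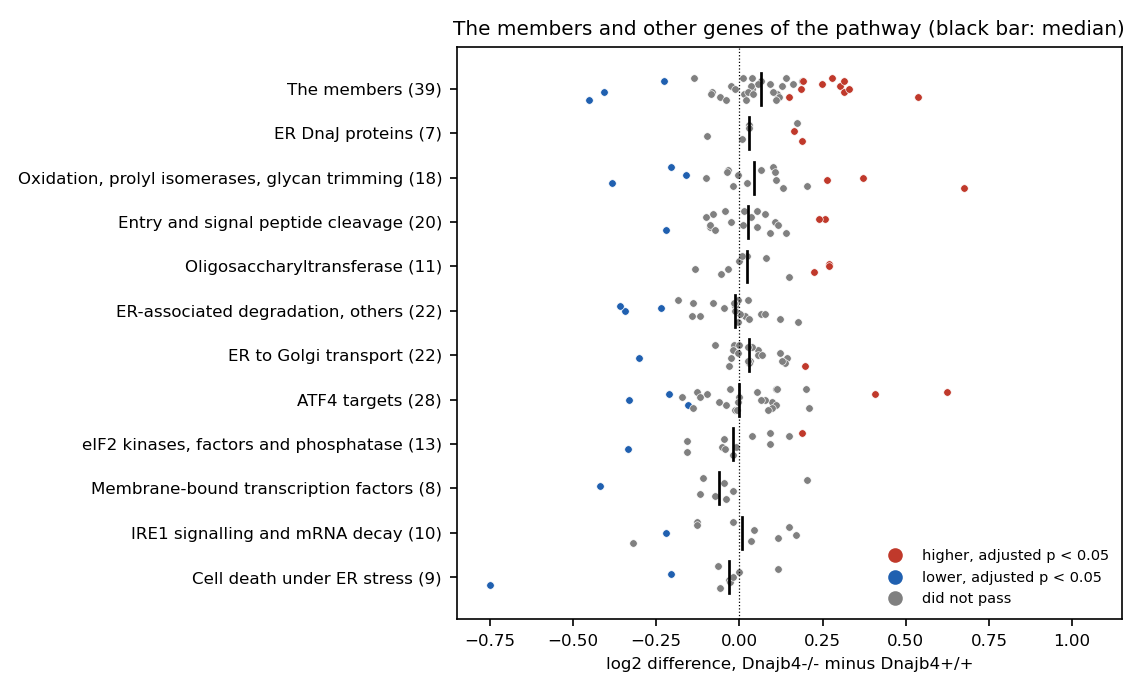
Log2 difference (Dnajb4-/- minus Dnajb4+/+, horizontal axis) of every measured gene of the 39 and of 11 other pathway lists, with the number of genes in brackets and a black bar for the median. Medians lie between -0.06 and 0.06, and the called genes (red higher, blue lower) fall on both sides in 6 of the 12 rows.

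Cells with a large ER of their own could add to these signals, which was not tested. Markers of pancreatic acinar cells were at 8.01 to 31.7 in Dnajb4+/+ and 8.67 to 35.9 in Dnajb4-/- livers (means) for 10 of 11 genes, among them Prss2, Ctrb1 and Cpa1. The other was Cela1, which was higher (603 and 873). With Cela1 the summed signal of the 11 genes was 792 to 807 in Dnajb4+/+ and 1062 to 1117 in Dnajb4-/- arrays. Of 11 plasma and B cell markers Jchain was lower (76.4 ± 5.17 to 56.7 ± 2.34, SD, n = 3) and none was higher, with a summed signal of 949.7 to 954 in Dnajb4+/+ and 882 to 901 in Dnajb4-/- arrays.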

How the data were processed

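Total RNA of 6 mouse livers, 3 Dnajb4+/+ and 3 Dnajb4-/- by the labels, was hybridised to 1-colour Affymetrix mouse expression arrays. The authors processed them in GeneSpring by GCRMA with global median centring, and what they deposited are linear intensities, from 3.90 upwards. GCRMA corrects background by probe GC content and normalizes between arrays, which assumes that most probe sets do not change. The genome build and software versions are not given in the sources used here, and no detection call or raw signal was used.

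The deposited intensities were put on the log2 scale. Of 45101 probe sets, 64 controls were left out, and the 34945 with a single gene symbol were averaged per gene, as the methods describe. The gene values were tested with limma 3.58.1 under R 4.3.3 (lmFit, then eBayes; two-sided, no covariate, Benjamini-Hochberg over 18193 genes, threshold 0.05), and single probe sets in the same way. The procedure was tested on simulated data. The arrays carry no read depth, and their number limits the precision. If arrays of a genotype shared RNA, p-values would measure technical spread only.

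The 39 genes, the pathway and marker lists and the motifs were chosen with earlier results of these data known. Named are all 39 genes, with each array for those called, and of each other list the counts and at most 4 genes, the most changed of those called. Dnajb11 and Asns, Nucb2 and Srebf1 by array were added after their values were seen. Promoter sequences are from RefSeq (GRCm38.p6). Ppp1r15b, Hyou1, Manf, Derl1, Tmbim6, Atf6 and Sec61a1 had none there. They were searched, and the figures drawn, in python 3.11.15 with pandas 2.3.3 and matplotlib 3.10.9.

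Alternatives covered normalization, centring, filters on dim genes, the gene-level value, the variance model, 16 added to each value, the methods' t-test and a block on replicate number. Probe sets that can read several transcripts (suffix a, s or x of their name) were also left out, as was every array in turn. Leaving out probe sets of suffix x or s, and dim probe sets, was added after seeing the data.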

Additional observations from a re-analysis of the deposited data

How the results depend on the processing

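The median difference of the 39 genes was 0.06 as reported, 0.10 after quantile normalization (0.0986) and with either centring on bright probe sets (0.0998 on their mean, 0.103 on the median of the brightest ones), 0.04 (0.0388) from probe sets specific to 1 transcript by their name, and 0.05 to 0.09 (0.0547 to 0.0876) with 1 array left out. The number of the 39 genes called higher moved with the settings, and the share of all tested genes called higher is given in brackets. The 10 as reported (5.09%) became 16 and 17 with the centrings (8.37% and 8.84%). They were 16 among genes above the median signal, where 12.3% of genes were higher and 23.4% lower. By the methods' t-test they were 19 at an unadjusted p (11.3%) and 14 after Benjamini-Hochberg adjustment (3.82%). From these specific probe sets they were 5 of 33 tested (3.87%). They were 7 to 9 with 1 array left out (2.84% to 3.61%). The 3 lower became 2 to 4 over all alternatives. Some genes not called as reported gained a call in part of the settings, among them the t-test at an unadjusted p. Higher were Sec61b in 11 of 21 settings, Calr in 10 of 20, Atf6b in 9 of 20 and Herpud1 in 9 of 21. Ern1 was higher in 8 of 20 and Atf4 in 6 of 21, and Pdia5 was lower in 6 of 21. Other genes gained a call in fewer settings. Past the threshold before or after, the sign turned for Atf4 (-0.20, adjusted p = 0.0242) and Sel1l (0.19, adjusted p = 0.0153) with the brightest probe set of each gene, and for Hyou1 (-0.0239, adjusted p = 0.818) with specific probe sets only. Atf4 was also negative, without a call, when linear values of its probe sets were averaged (-0.04, adjusted p = 0.465). The sign turned without a call on either side for Sel1l in other settings and for Erp44, Mbtps1, Os9, Pdia3, Pdia4, Pdia6 and Ppp1r15b (to -0.13). With replicate number as a block 6 genes were higher and 3 lower, beside 2.78% and 5.63% of all genes. Hsp90b1, Sdf2l1, Edem1 and Sec61a1 then did not pass. Same-numbered arrays did not deviate together (correlations of -0.02, -0.14 and 0.01), beside -0.10 to 0.12 for arrays of different numbers. With 3 arrays a genotype this cannot decide whether the numbers pair the animals. Of the alternatives chosen after seeing the data, leaving out probe sets of suffix x or s gave 9 higher and 3 lower. All genes tested were then higher for 4.51% and lower for 9.39%. Leaving out dim probe sets gave 15 and 4, beside 12.6% and 23.9% of all genes tested. With 3 arrays a genotype and no detection calls, small differences of dim probe sets, such as the dim pair of Eif2ak3, could not be resolved.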
